A study of Glycine max with 4 samples.

Results

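Of 44959 sites found in both chromatin immunoprecipitation (ChIP-seq) replicates of soybean embryos, 1669 (3.71%) were wide and moderately enriched, and they are described here. A site was taken as shared when a replicate 1 peak and a replicate 2 peak were each other's largest overlap. A shared site was a member when its peak was at least 750 bp wide in both lists and its fold enrichment was below 20 in at least 1 of them. Fold enrichment is the read pileup at the summit, the base with most reads, over a local background, as the authors' peak caller gave it. Width and fold therefore chose these sites and are given below as a description, without a test.

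The material was embryos of Glycine max cultivar Williams 82 at mid-maturation, dissected from seeds of 200 to 250 mg from greenhouse plants and fixed for 10 minutes in 1% formaldehyde. Chromatin sheared to 100 to 500 bp was precipitated with an antibody against a peptide of amino acids 1 to 15 of the protein of locus GLYMA.13G317000 (2 ChIP samples), or kept without precipitation (2 input samples). No transgene, mutant or treatment separates the samples, and no sample without the protein was analysed here, so whether the antibody binds other proteins was not tested. Peak lists were used for both ChIP samples, with 48191 peaks in replicate 1 and 62340 in replicate 2, and the inputs entered only as far as the peak caller had used them. Summit pileups, solved from the deposited fold and p-value of each peak, spanned 12 to 316 reads in the first list and 11 to 332 in the second.

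In ChIP-seq, DNA fragments crosslinked to a protein pile up over the place it occupies, and a peak is the stretch where that pileup exceeds background. Fragments around a single occupied position reach about a fragment length to each side of it and give a compact peak with a central summit. Where positions lie closer together than their fragments can separate, a peak caller can join them into 1 longer peak with 1 reported summit. At mid-maturation the soybean embryo is filling with storage protein and oil. Each list pools many cells, so signal along a wide peak that comes from the same cells and signal that comes from different cells cannot be told apart.

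The members covered 1.49 Mb in the parts common to both lists. Their widths ran from 750 to 2204 bp in replicate 1, with a median of 914 bp, and from 750 to 2351 bp in replicate 2, with a median of 899 bp. The whole lists had median widths of 421 and 377 bp. At least 1000 bp in both lists was reached by 339 members (20.3%), with 16 of them at or above 1500 bp. Fold enrichment ran from 3.20 to 29.6 in replicate 1 (median 12.3) and from 3.38 to 47.9 in replicate 2 (median 15.8). Fold was below 20 in both lists at 1170 members, in replicate 1 alone at 454 and in replicate 2 alone at 45. Replicate 2 gave the higher fold at 80.9% of members. The typical replicate 2 fold was 1.31 times that of replicate 1, a median log2 ratio of 0.39 with an SD of 0.43 across the 1669 members.

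Wide sites became more frequent as enrichment rose. Of shared sites with a geometric mean fold of 5 to 8, 154 of 16748 were at least 750 bp wide in both lists (0.920%, 95% Wilson interval 0.786 to 1.08). At a fold of 12 to 16 this held for 443 of 5024 (8.82%, 8.06 to 9.63), and at 20 to 30 for 581 of 2648 (21.9%, 20.4 to 23.6). All wide sites up to a geometric mean fold of 20 were members, and the other 812 wide sites had a fold of 20 or more in both lists. Among the members themselves width hardly followed enrichment, with a Spearman's rho of 0.126 between the smaller width and the geometric mean fold across 1669 sites that share 2 libraries. Across the narrower sites, not matched for fold, it was 0.727. The range of both values was cut by the rule.

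**Figure D1:**
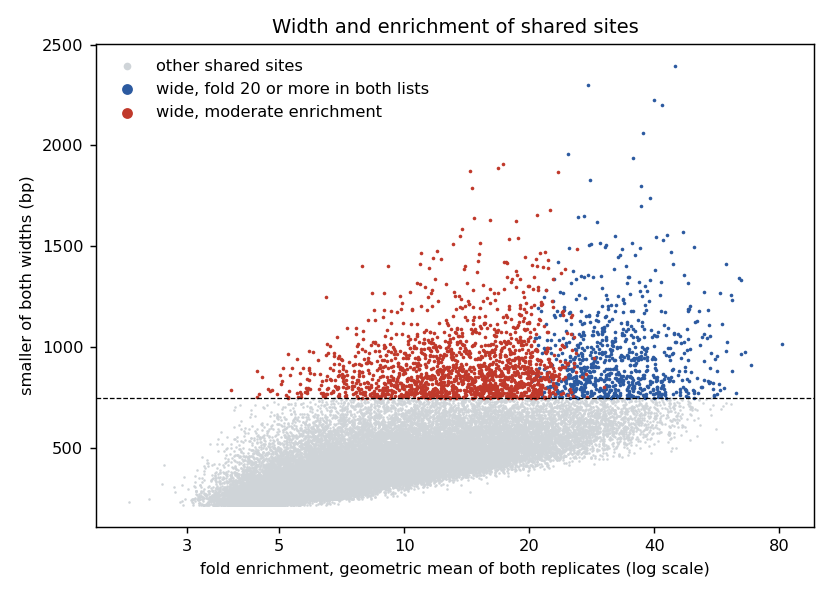
Smaller of the widths in both replicates (bp) against the geometric mean of both fold enrichments (log axis) for each of the 44959 shared sites, with the 1669 members in red, the 812 wide sites of fold 20 or more in both lists in blue, and the 750 bp limit dashed. The members form a band above the main cloud that begins at a mean fold of 3.84 and ends at 30.2.

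The limits of 750 bp and fold 20 divide a continuous distribution. The members nearest the width limit had widths of 790 and 750 bp (chromosome 4 at 2020663 to 2021376), 808 and 750 bp (chromosome 4 at 31864136 to 31864885) and 840 and 750 bp (chromosome 6 at 2632717 to 2633466). Just outside lay sites of 791 and 749 bp on chromosome 1, 749 and 772 bp on chromosome 3, and 777 and 749 bp on chromosome 4. Nearest the fold limit were members with folds of 19.9 in replicate 1 and 37.6, 29.9 and 21.3 in replicate 2, on chromosomes 17, 11 and 4. Just outside were wide sites with replicate 1 folds barely above 20 and replicate 2 folds of 21.5, 28.6 and 29.0. Positions follow the deposited lists, with the first base as 1. The genome build of the lists is not given in the sources used, and genes and sequence at the sites were not analysed here.

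The summit of a wide peak lay well away from its centre. On a scale from 0 at the centre to 1 at an edge, the median summit place of the members was 0.364 in replicate 1 and 0.386 in replicate 2. The comparison was with 38614 narrower shared sites, under 750 bp in both lists and with a fold below 20 in at least 1, weighted so that their geometric mean folds were distributed as in the members. These had medians of 0.0978 and 0.0962. In 23.8% of members the replicate 1 summit had a place of at most 0.2, against 80.5% of the narrower sites, and in replicate 2 the shares were 19.8% and 81.4%. Because width takes part in the summit place, in the summit distance and in how peaks divide between lists, these 3 comparisons carry no test.

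In base pairs, a wide peak had a short flank and a long one. Median short flanks, from summit to nearer edge, were 301 and 280 bp in replicates 1 and 2, compared with 227 and 214 bp at narrower sites. The shortest peaks of the whole lists were 250 and 220 bp wide. The long flank had a median of 613 and 619 bp, compared with 284 and 272 bp. Of the mean width that members had beyond narrower sites, 449 and 453 bp, the long flank held 79.8% and 81.9%. Width went mainly with the long flank among members, with Spearman's rho of 0.798 and 0.783 in the replicates, against 0.368 and 0.321 for the short flank. Flanks are parts of the width, so these values only apportion it.

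**Figure D2:**
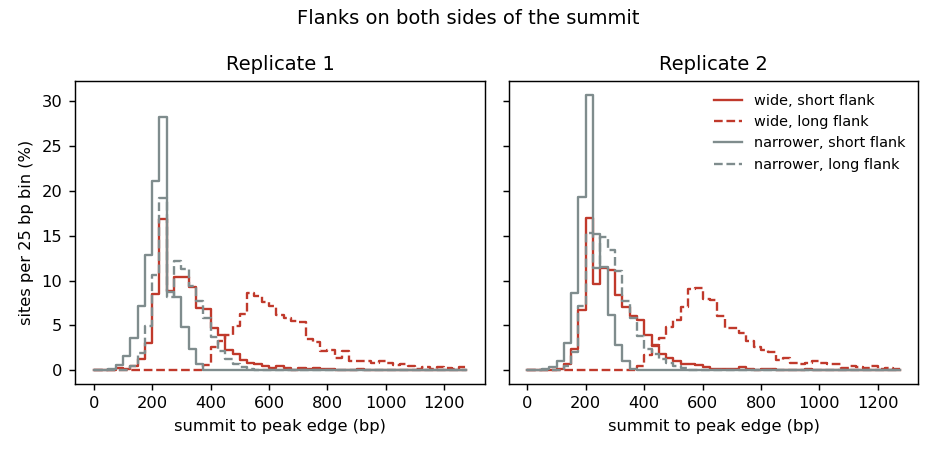
Distance from summit to peak edge (bp, bins of 25 bp) in replicates 1 and 2, as the percentage of sites, for members (red) and for narrower sites standardised for fold (grey), with the nearer edge as a solid and the farther edge as a dashed line. The short flanks of the members peak where those of narrower sites do, between 200 and 250 bp, but reach farther. Their medians are 301 and 280 bp, against 227 and 214 bp at narrower sites. The long flanks of the members have medians of 613 and 619 bp.

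The long flank pointed the same way in both replicates at most members. In 1354 members (81.1%, 95% Wilson interval 79.2 to 82.9) the summit was at least 50 bp from the centre in both lists, against 7.71% of narrower sites. Of these 1354, 1169 had both summits on the same side (86.3%, 84.4 to 88.1) and 185 had them on opposite sides. The share on the same side was 85.4% among the narrower sites that were off centre in both lists. The replicate 1 summit was left of the centre in 50.3% of members (47.9 to 52.7). The nearest other shared site lay on the side of the long flank in 573 of 1168 members (49.1%, 46.2 to 51.9), against 47.0% of narrower sites.

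Enrichment and width went along with the summit place in different ways. Members with a geometric mean fold under 8 had median summit places of 0.454 and 0.474 in replicates 1 and 2, and those of fold 16 or more had 0.310 and 0.340. Their short flanks were 246 and 219 bp at the low folds and 329 and 293 bp at the high ones, while the long flanks of replicate 1 were 617 and 608 bp. Members of 1200 bp or more, 106 in number, had summit places of 0.452 and 0.484 and long flanks of 1018 and 1016 bp. The 812 wide sites of fold 20 or more had summits nearer the centre, at 0.213 and 0.251, with short flanks of 391 and 349 bp and long flanks of 603 and 579 bp.

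Summits of both replicates fell close together at most members, and far apart at a separate minority. The median distance between them was 32 bp, and it was 22 bp at narrower sites of like fold. At 1134 members (67.9%) the summits lay within 50 bp. More than 100 bp separated them at 264 members (15.8%, 14.1 to 17.6), against 2.00% of narrower sites, and more than 200 bp at 178 (10.7%, 9.27 to 12.2), against 0.191%. A narrower peak leaves less room for such distances. The 812 wide sites above the fold limit in both lists met the same width limit, but had a median distance of 18 bp. More than 100 bp separated the summits at 2.71% of these 812, and more than 200 bp at 1.35%. They were not matched to the members for fold, and the cause of the difference was not tested. The distances of the members dipped in between, with 10 members in the 50 bp from 250 to below 300 bp. There were 40 from 300 to below 400 bp and 56 from 400 to below 500 bp. These later classes are 100 bp wide, so the counts are not for equal spans.

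**Figure D3:**
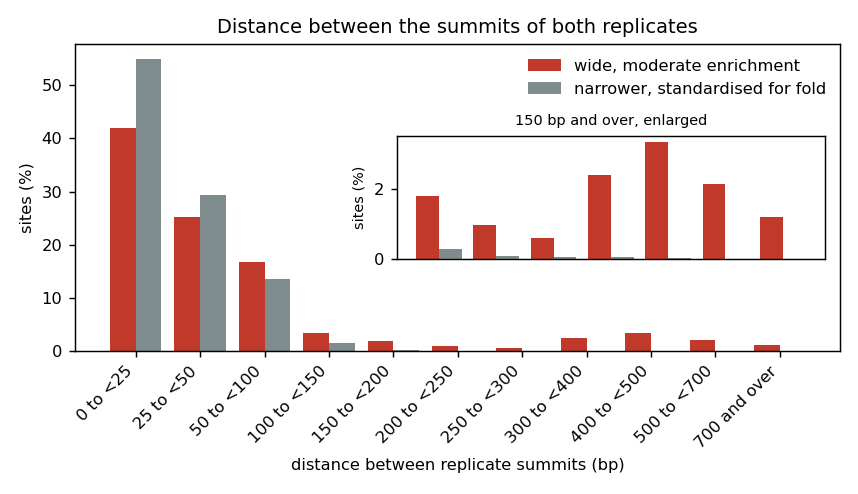
Percentage of sites by distance between the replicate 1 and replicate 2 summits (bp), for the 1669 members (red) and for narrower sites standardised for fold (grey), with distances of 150 bp and over enlarged in the inset. The members decline to 0.599% at 250 to below 300 bp and rise again to 3.36% at 400 to below 500 bp, where narrower sites have 0.0117%. Classes differ in width, 50 bp at the former and 100 bp at the latter, so bar heights are not for equal spans.

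At the 178 members with summits more than 200 bp apart, the replicates largely shared the outline of the peak but not its highest point. The starts differed by a median of 47 bp and the ends by 47.5 bp, whereas the summits differed by 436.5 bp. Mean width minus summit distance had a median of 526 bp, where narrower sites weighted to the folds of these 178 had median widths of 462 and 451 bp. These members were less enriched, with median folds of 9.22 and 11.0, compared with 13.3 and 16.9 where summits lay within 50 bp. Median pileups were 42 and 51.5 reads, against 63 and 77. The share of members with summits over 100 bp apart was 41.1% below a mean fold of 8 (67 of 163, 33.8 to 48.8) and 6.88% at 16 or more (43 of 625, 5.15 to 9.14). It was 15.6%, 15.4% and 19.8% at widths of 750 to 900, 900 to 1200, and 1200 bp or more. The widest band held only 106 members, 21 of them with such distances (13.3 to 28.4). All members share the same libraries, and differences between bands of fold or width were not tested.

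The widest members were ranked by the smaller of their widths, so that they are wide in both replicates by choice. Members could also be very wide in 1 list alone, as on chromosome 12 at 2474392 to 2475372, with 2204 bp in replicate 1 and 981 bp in replicate 2. On chromosome 10, the site at 40648292 to 40650201, the part common to both lists, was 1910 bp wide in replicate 1 and 2351 bp in replicate 2. Its fold was 16.7 in replicate 1 (95% counting interval of the pileup 13.1 to 21.1) and 17.8 in replicate 2 (13.8 to 22.5), and its summits were 41 bp apart. Between 50232107 and 50233993 on chromosome 19 the widths were 2024 and 1887 bp and the folds 17.9 and 15.7. A site of chromosome 13, 37115237 to 37117063, had widths of 1947 and 1873 bp, with long flanks of 1194 and 1148 bp on the right of summits 92 bp apart. Both replicates placed the chromosome 7 site at 6304243 to 6306109 nearly alike, at 1923 and 1867 bp, with central summits and folds of 19.7 and 27.9.

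The other widest members lay on chromosomes 5, 19, 3 and 14. The chromosome 5 site, at 39656112 to 39657898, had long flanks of 1346 and 1257 bp beside short ones of 641 and 530 bp. A further site on chromosome 19, at 34804906 to 34806567, was 1755 and 1679 bp wide, with summits 528 bp apart. Its pileups were 110 and 129 reads over backgrounds of 6.48 and 2.83 reads, which gave folds of 14.8 and 34.0. On chromosome 3 at 17106639 to 17108289 both replicates had the summit at base 17107547, within peaks of 1677 and 1657 bp. Identical summits were also found base 51683626 of chromosome 1 and base 2442014 of chromosome 2. A chromosome 14 site, 43488644 to 43490284, was 1764 and 1641 bp wide with folds of 15.3 and 14.1.

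**Figure D4:**
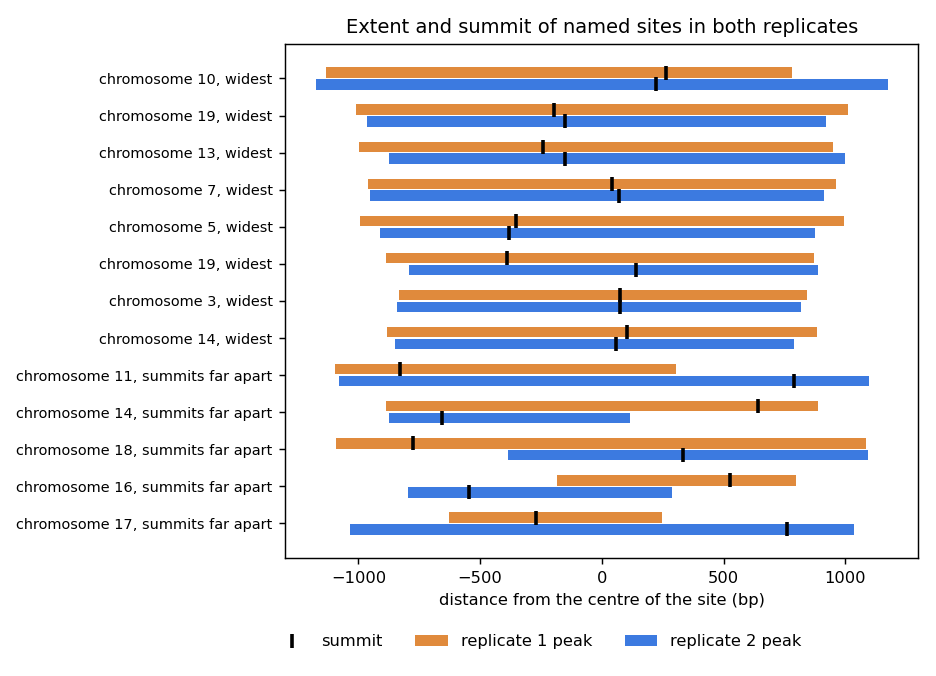
Extent of the replicate 1 peak (orange) and the replicate 2 peak (blue) around the centre of each site (bp), with black ticks at the summits, for the 8 members of largest smaller width and the 5 with the largest summit distance. Summits of the widest sites lie 0 to 92 bp apart except at the second chromosome 19 site (528 bp), and those of the lower 5 lie 1029 to 1619 bp apart.

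At the members with the largest summit distances, the outlines of the peaks differed between the lists. On chromosome 11 at 2029881 to 2031267 the peaks were 1403 and 2180 bp wide and the summits 1619 bp apart, with 35 reads at the replicate 1 summit and 58 at the replicate 2 summit. The chromosome 14 site at 7853393 to 7854384 had widths of 1776 and 992 bp and summits 1297 bp apart. Distances of 1106, 1071 and 1029 bp were found on chromosome 18 at 6737262 to 6738733, on chromosome 16 at 27974976 to 27975444 and on chromosome 17 at 3716396 to 3717269. In each of these 5, 1 or both peaks overlapped more than 1 peak of the other list. At each, at least 1 of the summits lay outside the paired peak of the other list.

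Some wide peaks of one replicate overlapped several peaks of the other. Of all peaks of 750 bp or more, whatever their fold, this held for 569 of 4235 in replicate 1 (13.4%, 12.4 to 14.5). In replicate 2 it held for 212 of 3410 (6.22%, 5.45 to 7.08). Overlaps were counted only at peaks with a partner of any width, and the 5 and 26 wide peaks without a partner stayed in the totals. Members need a partner of at least 750 bp, which leaves out wide peaks that the other list divides into narrower ones. Among members it held for 65 replicate 1 peaks (3.89%, 3.07 to 4.93) and for 31 replicate 2 peaks (1.86%, 1.31 to 2.62), or for 92 members in all (5.51%, 4.52 to 6.71), against 0.292% of narrower sites. The 65 extra replicate 2 peaks under replicate 1 peaks had a median width of 351 bp, a median fold of 6.50 and summits a median of 742 bp from that of the partner. Of the 4235 wide replicate 1 peaks, 2481 had a partner as wide, 1749 had a narrower partner with a median width of 639 bp, and 5 had none. Of the 3410 in replicate 2, 903 had a narrower partner, with a median of 616 bp.

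Read pileups at the summits differed between replicates at few members. Pileups at all 44959 shared sites were scaled by 1.25, the ratio of their sums, and tested site by site with an exact binomial test and Benjamini-Hochberg adjustment over all sites, which called 13 sites (0.0289%) at an adjusted p of at most 0.05. Of the members 4 of 1669 (0.240%) were called. Because the fold values that chose the members come from these pileups, nothing is read from the difference of the shares. All 4 were higher in replicate 1 and belonged to the members whose replicate 1 peak overlapped 2 replicate 2 peaks.

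At each of these 4 sites the partner with the larger overlap was not the peak with the nearer summit. On chromosome 15 at 11817089 to 11818099, the replicate 1 summit had 111 reads and the partner 36 reads 636 bp away (exact binomial test, adjusted p = 1.86e-09), while a second replicate 2 peak had its summit 44 bp away with 131 reads. On chromosome 19 at 48718262 to 48719131, 122 reads stood against 62 reads 919 bp away (adjusted p = 3.75e-05, exact), and the second peak had 124 reads at 5 bp. The corresponding numbers were 75, 35 and 112 reads on chromosome 12 at 2474392 to 2475372, with the second summit 11 bp away (adjusted p = 0.00430, exact). The chromosome 14 site with summits 1297 bp apart had 75, 38 and 97 reads, with the second summit 60 bp away (adjusted p = 0.0163, exact). The called differences thus compare different positions under 1 wide replicate 1 peak. In the same order, the second peaks had folds of 24.9, 21.6, 25.3 and 21.6 and widths of 748, 673, 1021 and 581 bp. Paired with them, only the chromosome 12 site would meet the width limit of 750 bp. The others are members through the pairing by largest overlap.

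The member of highest mean fold, on chromosome 10 at 50863244 to 50864045, had folds of 19.0 (16.2 to 22.2) and 47.9 (41.9 to 54.4), from pileups of 159 and 230 reads over backgrounds of 7.41 and 3.83 reads. Next was chromosome 2 at 13588447 to 13589392, where the folds were 18.6 and 44.1, with pileups of 138 and 168 reads and backgrounds of 6.48 and 2.83 reads. Sites on chromosomes 13, 17 and 14 followed with replicate 1 folds of 18.8, 19.9 and 18.5 and replicate 2 folds of 40.3, 37.6 and 38.8. At all 5, the replicate 1 background was higher than that of replicate 2, and the binomial test of the pileups had an adjusted p of 1. The interval of a fold leaves out the counting error of its background.

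The least enriched member lay on chromosome 7 at 41554257 to 41554590, where the folds were 3.97 (2.62 to 5.78) and 3.71 (2.43 to 5.45), with pileups of 25 and 24 reads and summits 537 bp apart. Its replicate 1 peak overlapped 2 replicate 2 peaks. The replicate 1 summit, at base 41554919, lay outside the replicate 2 partner, so its folds belong to different positions. A chromosome 17 site at 1471342 to 1472223 had folds of 4.06 and 4.79, and one on chromosome 15 at 6062081 to 6062808 had 5.78 and 3.38. Both remaining sites lay on chromosome 13, at 44993453 to 44994216, where the folds were 3.72 and 5.36, and at 44580120 to 44580960, where they were 4.98 and 4.15. Pileups of these 5 members were 20 to 32 reads, and their intervals overlapped between replicates. Over all members the median background was 3.70 reads in replicate 1 and 3.37 in replicate 2, compared with 3.24 and 3.16 reads at narrower sites. The median pileup was 58 and 71 reads, compared with 53 and 69. These values share the contrast that chose the sites and were not tested.

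Other shared sites lay closer to wide sites than to narrower sites of like fold. Within 10 kb, measured from edge to edge so that width itself adds no room, a member had a mean of 2.39 other shared sites and a narrower site 2.07. The mean was higher for members on 19 of 20 chromosomes (exact two-sided sign test over chromosomes, p = 4.01e-05, Benjamini-Hochberg adjusted over 2 such tests p = 8.01e-05). Chromosome 11 had the largest difference, 3.06 against 2.32, and chromosome 6 had 2.95 against 2.27. The exception was chromosome 5, with 2.13 against 2.17. The nearest other shared site was a median of 2308 bp from a member and 2871 bp from a narrower site. No neighbour within 10 kb was found for 213 members (12.8%, 11.2 to 14.4), against 18.2% of narrower sites. The 812 wide sites of fold 20 or more in both lists had a mean of 2.52 neighbours within 10 kb. Their nearest other shared site was a median of 1947 bp away, and 12.7% of them had no neighbour. More neighbours were thus not particular to the members among wide sites. Chromosomes are not samples, and the test does not measure the spread between embryos.

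The difference in neighbours was found in both parts of the chromosomes. In the outer 40% of the chromosome spans, 20% at each end, members had 2.55 neighbours and narrower sites 2.30, and in the remaining 60% they had 2.00 and 1.60. The member with most neighbours, 10 within 10 kb, lay on chromosome 13 at 34675172 to 34676198, and its folds were 13.7 and 21.0. It was followed by sites with 8 neighbours on chromosome 9 at 4122626 to 4123457, on chromosome 13 at 32178995 to 32179713 and on chromosome 17 at 41224471 to 41225432, and by 1 with 7 on chromosome 1 at 52082263 to 52083043. The nearest other shared site was itself a member at 75 of 1668 members (4.50%, 3.60 to 5.60), against 3.60% of narrower sites.

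Members lay on all 20 chromosomes, and 9 were on 7 scaffolds. The outer 40% of the spans held 1197 of 1660 members on chromosomes (72.1%, 69.9 to 74.2), against 67.7% of narrower sites. The share was higher for members on 14 of 20 chromosomes, which did not pass the exact two-sided sign test (p = 0.115, adjusted p = 0.115). With members chosen on the replicate 2 list alone it was higher on 16 chromosomes (adjusted p = 0.0118, exact sign test), and with a fold below 20 required in both lists on 15 (adjusted p = 0.0414). On chromosome 13, 45.9% of members and 31.9% of narrower sites were in the outer parts, and on chromosome 15 65.2% and 72.3%. The spans end at the last peak of either list, since no genome of the lists' build was used.

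**Figure D5:**
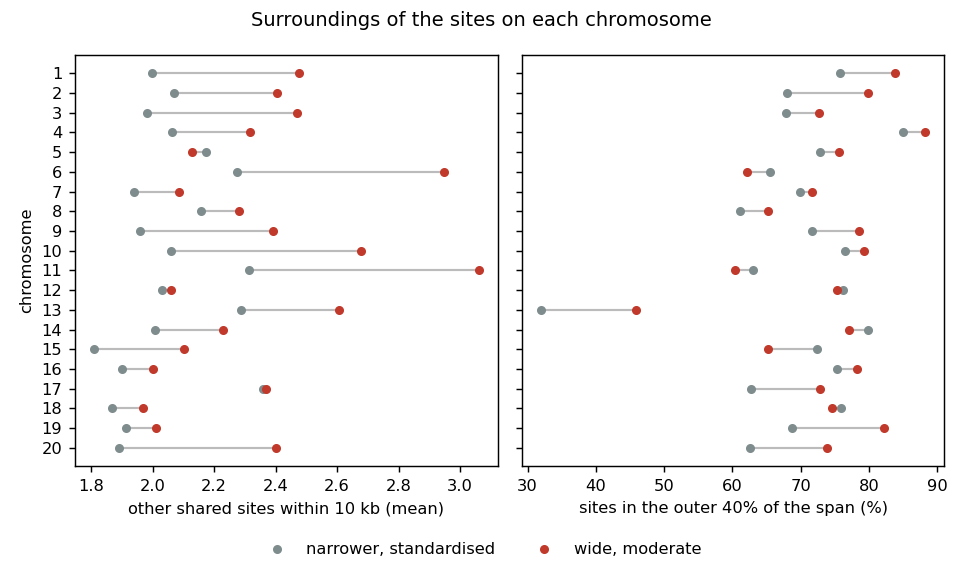
Mean number of other shared sites within 10 kb (left) and percentage of sites in the outer 40% of the span (right) on each of the 20 chromosomes, for members (red) and for narrower sites standardised for fold within the chromosome (grey). Members have more neighbours on 19 chromosomes, all but chromosome 5, and a larger outer share on 14.

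Chromosomes differed in how many of their shared sites were members. Chromosome 11 had 116 members among 2267 shared sites (5.12%, 4.28 to 6.10), 1.34 times the number that its folds would give at the rates of all chromosomes together. Chromosome 18 had 63 of 2124 (2.97%, 2.33 to 3.78) and chromosome 16 had 46 of 1568 (2.93%, 2.21 to 3.89), both 0.83 times that number. Chromosome 13 held 110 members (3.36% of its shared sites), chromosome 10 held 88, chromosome 20 held 65, chromosome 3 held 66 and chromosome 19 held 84. The middle 20% of the spans held 67 members (4.04%, 3.19 to 5.09), against 6.19% of narrower sites, and the megabase at either end held 144 (8.67%, 7.41 to 10.1), against 8.01%. These shares were not tested, and their intervals cover counting error only.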

How the data were processed

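Peak lists of 2 ChIP replicates were used, 1 list per replicate and not pooled; input samples entered only through the peak caller. Per the submitters' processing notes, reads were aligned with Bowtie 0.12.7 and peaks called with MACS2; the sources used here give no version, threshold or genome build. For each peak the authors deposited a start, an end and a summit offset, a fold enrichment (a ratio), a −log10 p-value, a −log10 q-value and a score that truncates 10 times the −log10 q to a whole number. The largest q-value was 0.00563 and 0.00871. The score was not used.

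Whole-number summit pileups and backgrounds were solved from each deposited fold, (pileup + 1) / (background + 1), and −log10 p-value (upper Poisson tail), within 0.001, for 48191 of 48191 and 62340 of 62340 peaks. Shared sites needed at least 1 bp of overlap. Narrower sites were weighted to the members' distribution of geometric mean fold in bins of 0.25 log2 units, and all 1669 members had narrower sites in their bin. Pairing, pileups, the binomial test and neighbour counts were tested on simulated data. Tools were Python 3.11.15, numpy 2.4.6, pandas 2.3.3 and scipy 1.17.1. Wilson and Poisson intervals have a level of 95% and cover counting error only. The Wilson intervals count sites and treat sites of the same libraries as independent. The Poisson intervals count reads, which were amplified by PCR, carry no molecular identifiers and need not be separate molecules.

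Members, measures and tests were chosen with earlier results of these data known. Sites named are the 8 members with the largest smaller width, the 5 of highest and of lowest mean fold, the 5 with the largest and the 3 with the smallest summit distance, the 5 with most neighbours, all called in the pileup test, and 3 on each side of both limits, on chromosomes, with ties going to the lower chromosome and start. The replicates are biological per the series' design text. Alternatives were the replicate 1 or 2 list alone, a −log10 q of at least 10, an overlap of 50% of the shorter peak, widths of 600 and 900 bp, a fold below 20 in both lists, comparison sites narrow in at least 1 list, fold bins of 0.1, windows of 5 and 50 kb, outer shares of 20% and 60%, and the nearer edge in bp. Motifs and gene starts, planned for a genome of the lists' build, were not analysed here.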

Additional observations from a re-analysis of the deposited data

How the results depend on the processing

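Of 64 values recomputed under alternatives for 8 results, 47 stayed the same, 2 passed the test where the main value had not, and 15 moved. For tested differences, the same meant an unchanged direction and side of the threshold. For counts of sites it meant staying within a set ratio of the main count, and otherwise a move of less than the spread. For shares the spread was the distance from the middle of the Wilson interval to its end. For the summit place it was the SD over the differences of both replicates, 0.0168. The nearer edge in bp, in another unit, was set as moved. A changed sign of the share on the same side was not counted by itself. No called value changed sign. The share with both summits on the same side, which in the main setting differed from narrower sites by less than its spread, changed sign under 2 alternatives (below). The larger number of neighbours at members kept an adjusted p of at most 0.05 under all its alternatives. The larger outer share passed the sign test with replicate 2 alone (a difference of 2.84 percentage points) and with a fold below 20 in both lists (4.49 points), and the 2 single lists gave 2.84 to 3.72 points. Single lists gave 1978 to 2808 members and a difference in summit place, wide minus narrower, of 0.263 to 0.312. A width of 600 bp gave 4422 members, 7 of them called in the pileup test, a difference in summit place of 0.204, and 8.00 percentage points more sites with both summits on the same side than narrower sites. A width of 900 bp gave 659 members, 0.314 and -0.97 points; the main values were 0.278 and 0.951 points, so the share on the same side was not shown to differ from narrower sites, and it was -0.32 points with a fold below 20 in both lists. With a fold below 20 in both lists, the excess of members with summits over 100 bp apart was 16.7 percentage points (main 13.8), the summit place difference 0.296 and the number called 2. Comparison sites narrow in at least 1 list gave 2.85 points for the same side. A −log10 q of at least 10 left 3.30% of members overlapped by several peaks (main 5.51%). In bp, the nearer edge lay 70 bp farther from the summit in members, although relative to width the summit was off centre. Fewer or other sites enter under each of these by construction; beyond that the cause was not tested. No paired analysis was possible because only the ChIP samples have lists, so groups with the same replicate numbers could not be compared. Values that need both lists have none for a single list. Summit pileups of members began at 17 reads in replicate 1 and 19 in replicate 2. How precisely summits of such low pileups are placed was not tested.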
